A study of Rattus norvegicus with 6 samples.

Results

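The enzymes that handle superoxide, peroxides and electrophiles through glutathione and thioredoxin were examined in transplanted rat hearts. They were taken as the genes whose symbols begin with Gst, Gpx, Prdx or Txn, together with 12 genes named singly: Sod1, Sod2, Sod3, Cat, Gclc, Gclm, Gss, Gsr, Srxn1, Nqo1, Nfe2l2 and Keap1. This rule, which uses symbols and no measured value, found 67 of the 22250 genes in the deposited table. Srxn1 was not found under that symbol and was not analysed here. RNA-Seq of polyadenylated RNA was performed on left ventricular myocardium from 3 young donor hearts (animals 3, 13 and 15, aged 10 weeks) and 3 aged donor hearts (animals 3, 4 and 7, aged 1 year). All donors were wild-type male Sprague-Dawley rats. Every heart was arrested and stored cold in University of Wisconsin (UW) solution, placed heterotopically into a young recipient rat and sampled on day 1 after transplantation, so any blood cells that entered a graft came from a young animal. The number 3 in each group names a different heart.

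Cells remove superoxide in steps. Superoxide dismutases turn it into hydrogen peroxide, and catalase, the glutathione peroxidases and the peroxiredoxins then reduce the peroxide to water. Glutathione peroxidases draw their electrons from glutathione, and most peroxiredoxins draw theirs from thioredoxin, and both carriers are recharged with NADPH by glutathione reductase and the thioredoxin reductases. Glutathione S-transferases attach glutathione to reactive products such as those of lipid peroxidation. The transcription factor NRF2 (gene Nfe2l2), held back by KEAP1, raises many of these genes through a short DNA element called the antioxidant response element. In heart muscle, rich in mitochondria, a separate mitochondrial set (SOD2, PRDX3, TXN2, TXNRD2) works beside the cytosolic enzymes.

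Reads counted on genes ranged from 21457509 to 24560869 per heart, and the 67 genes took 0.444% to 0.461% of them in young hearts and 0.561% to 0.61% in aged hearts. These are shares of raw library totals, before the scaling used for all levels below. The scaling factors were 0.771, 0.733 and 1.09 in young hearts and 1.24, 1.13 and 1.16 in aged hearts. The shares are therefore not read as a rise of these genes. A count of 3 reads, taken as the floor, corresponded to 0.0985 to 0.191 CPM (reads scaled to library size, without gene length), for counting error only. Levels below are FPKM, which divide reads by gene length and library size, after TMM scaling of the libraries (a trimmed mean over genes). Aged hearts were compared with young hearts in edgeR, by the quasi-likelihood test applied to counts, and fold changes are log2 values of aged over young with their standard error (n = 3 hearts in each group). A gene is said to have risen or fallen only where it passed the limits used by the study, which are more than 1.5-fold or less than 0.67-fold the young level together with p under 0.05 before adjustment.

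Some libraries stood apart. The summed level of 11 cardiomyocyte markers was 75820 and 82470 CPM in young hearts 3 and 13, 10230 CPM in young heart 15, 5970 and 5958 CPM in aged hearts 4 and 7, and 568 CPM in aged heart 3, where defining heart muscle genes such as Myh6 (13.6 CPM) and Myl2 (0.887 CPM) were close to absent for left ventricular tissue. Of the 11 markers, 5 fell in aged hearts. Neutrophil markers summed to 17.4 to 151.5 CPM in young hearts and 379 to 1384 CPM in aged hearts, and 9 of the 10 tested rose. Macrophage markers summed to 374 to 2492 CPM against 3873 to 7481 CPM, and 5 of 11 rose. Endothelial, fibroblast, red blood cell and smooth muscle marker sums overlapped between the groups. In bulk tissue, fewer cells of a type and less RNA per cell cannot be told apart, and donor age and cell makeup cannot be told apart in these 6 hearts.

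Of the 67 genes, 52 passed the filter on low counts. Aged hearts had higher levels of 10 of them and lower levels of 11, past the limits, and 31 did not pass. The 21 genes past the limits were 40.4% of the 52, against 32.2% of the 13784 genes tested. The share past the limits was 13.2% of all genes in the higher direction and 19% in the lower direction. The median log2 fold change was −0.21 over the 52 genes and 0.02 over all genes tested. All aged hearts lay above or all below the young hearts for 20 of the 52, 10 in each direction, close to the 41.6% of all genes that did so. After Benjamini-Hochberg adjustment edgeR called 0 of the 52, as it did 0% of all genes tested, while 21 had an unadjusted p under 0.05. DESeq2 gave 16 of the 52 an adjusted p under 0.05, against 3592 of the 13784 genes tested. With quality weights, limma-voom gave 33 of the 52, against 8416 of the 13784. In edgeR, the Benjamini-Hochberg adjusted p of the 21 genes ran from 0.0916 to 0.145. Leaving out young heart 15 brought 26 of the 52 under an adjusted p of 0.05 in that test, against 6815 of the 14109 genes tested there. The plot of fold changes by enzyme class shows that 3 of the 7 classes, the transferases, peroxiredoxins and thioredoxins, held genes past the limits in each direction.

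**Figure D1:**
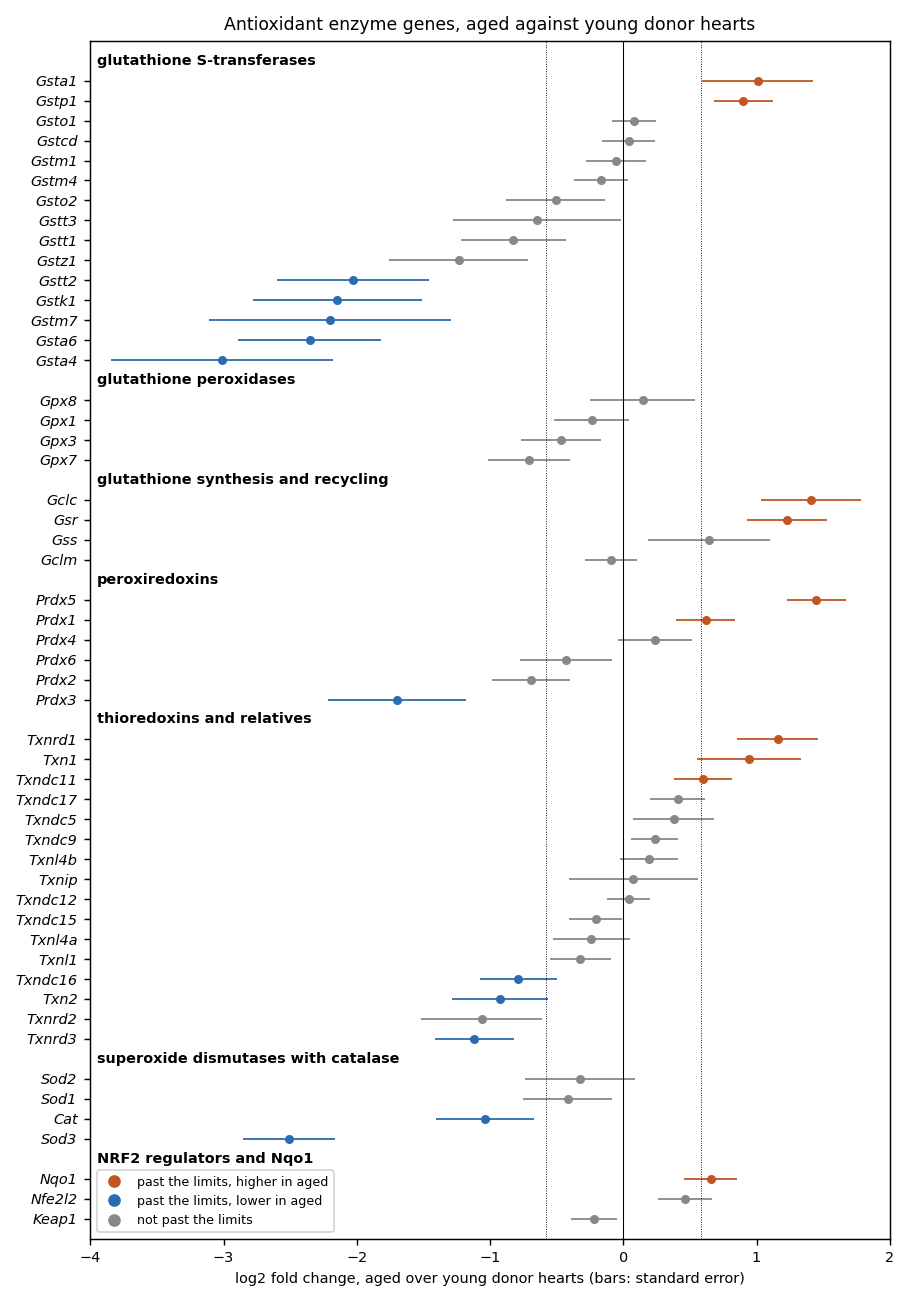
Log2 fold change of the 52 tested genes, aged over young donor hearts, by enzyme class, with bars for the standard error and dotted lines at the fold limits of 1.5 and 0.67. The 10 genes past the limits in the higher direction lie between 0.60 and 1.45, and the 11 in the lower direction between −3.01 and −0.79.

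Glutathione is built by glutamate-cysteine ligase, whose catalytic subunit is GCLC and whose modifier subunit is GCLM, and then by glutathione synthetase (GSS), and its oxidized form is recycled by glutathione reductase (GSR). Of these 4 genes, Gclc and Gsr rose and 2 did not pass the limits (50% past them, against 32.2% of all genes tested). Gclc (Ensembl identifier ENSRNOG00000006302, chr8:85059051-85097468 in Rnor_6.0) stood at 8.40, 10.2 and 20.6 FPKM in young hearts 3, 13 and 15 and at 41.6, 28.5 and 34.0 FPKM in aged hearts 3, 4 and 7. Every aged heart was above every young heart, and young heart 15 was the highest young heart. The log2 fold change was 1.41 ± 0.38. Gsr stood at 13.2, 14.1 and 22.6 FPKM in young hearts and at 49.2, 28.9 and 38.9 FPKM in aged hearts, with a log2 fold change of 1.23 ± 0.30. Its groups did not overlap either, and young heart 15 again lay between the other young hearts and the aged hearts. Gclm stood at 19.8, 20.8 and 24.9 FPKM in young hearts and 18.2, 18.7 and 24.5 FPKM in aged hearts. The groups overlapped for this subunit, with a log2 fold change of −0.09 ± 0.20, and its sign turned under other settings, to 0.33 with library totals alone, 0.083 with limma-voom and 0.054 without young heart 15. Gss had 7.39, 7.94 and 19.9 FPKM in young hearts and 12.5, 24.1 and 18.6 FPKM in aged hearts, a log2 difference of 0.65 ± 0.46 with overlapping groups. It ranged from 0.40 without young heart 3 to 1.30 without young heart 15, where it passed the limits, as it did with limma-voom (1.27).

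The ratio of Gclc to Gclm, which needs no scaling between libraries, was 0.426, 0.490 and 0.825 in young hearts and 2.29, 1.52 and 1.39 in aged hearts. Gclm thus exceeded Gclc per length in each young heart, and Gclc exceeded Gclm in each aged heart. The difference in log2 ratio was 1.60, with an exact permutation p of 0.1, the smallest that 3 hearts against 3 can give, and 0.15 after adjustment over the 6 pairs of genes compared. The summed level of the 4 genes was 63.3 ± 21.5 FPKM (SD, n = 3) in young hearts and 112.6 ± 11.1 FPKM in aged hearts, without overlap (two-sided exact permutation p = 0.1, adjusted 0.3 over 6 classes).

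Thioredoxin and its reductases form the other electron supply. TXN1 and TXNRD1 are the cytosolic pair, TXN2 and TXNRD2 the mitochondrial pair, and TXNRD3 is a reductase best known from testis. Of 18 thioredoxin-named genes, 16 were tested, of which 3 rose and 3 fell (37.5% past the limits, close to the 32.2% of all genes tested). Txnrd1 (ENSRNOG00000009088, chr7:26946125-26984400) stood at 28.2, 31.0 and 48.2 FPKM in young hearts and at 65.0, 73.1 and 102 FPKM in aged hearts, with a log2 fold change of 1.16 ± 0.31. All aged hearts were higher. Txn1 stood at 60.9, 47.6 and 133 FPKM in young hearts and at 153, 163 and 149 FPKM in aged hearts. Young heart 15 was far nearer to the aged hearts than to the other young hearts, and the log2 fold change of 0.95 ± 0.39 lay just past the p limit. Txn2 ran the other way, at 187, 170.1 and 85.5 FPKM in young hearts and 62.4, 102 and 68.3 FPKM in aged hearts (−0.92 ± 0.36). Young hearts 3 and 13 were above the rest, while young heart 15 lay among the aged hearts. Txnrd2 had the same pattern, with 26.0, 28.1 and 11.4 FPKM in young hearts and 5.73, 13.8 and 11.8 FPKM in aged hearts, but its difference of −1.06 ± 0.45 did not pass the p limit. Txnrd3 fell by 1.12 ± 0.30 on the log2 scale, from 6.98 ± 2.06 FPKM to 3.22 ± 0.523 FPKM (SD, n = 3), without overlap.

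Within each heart, Txnrd1 was 1.09, 1.10 and 4.23 times Txnrd2 per length in young hearts and 11.3, 5.30 and 8.61 times in aged hearts. Txn1 was 0.326, 0.280 and 1.56 times Txn2 in young hearts and 2.46, 1.60 and 2.19 times in aged hearts. The differences in log2 ratio were 2.23 and 1.97, each with an exact permutation p of 0.1 (adjusted 0.15). As the plot of ratios shows, young hearts 3 and 13 were close to each other, and young heart 15 lay next to the aged hearts.

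Among the remaining thioredoxin-named genes, Txndc11, a protein of the endoplasmic reticulum, rose by 0.60 ± 0.22 from 14.6 ± 3.63 to 22.2 ± 1.65 FPKM (SD, n = 3). It overlaps Snn on the opposite strand, and the sources used here do not say whether counting used strand. Txndc16, also of the secretory pathway, fell by 0.79 ± 0.29 from 4.80 ± 0.962 to 2.78 ± 0.713 FPKM. Txnip, which binds and inhibits thioredoxin, had the highest mean level of this class, at 276, 272 and 106 FPKM in young hearts and 244, 139 and 305 FPKM in aged hearts. Its groups overlapped and its difference of 0.07 ± 0.49 changed sign when young heart 15 or aged heart 7 was left out and with limma-voom. Apart from Txnrd2 and Txnip, the 8 genes of the class that did not pass the limits had log2 differences between −0.32 and 0.41. The summed level of the class was 853.6 ± 75.1 FPKM in young hearts and 924 ± 91.5 FPKM in aged hearts (SD, n = 3), with overlap, and the log2 difference of 0.11 became 0.58 in the deposited FPKM.

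**Figure D2:**
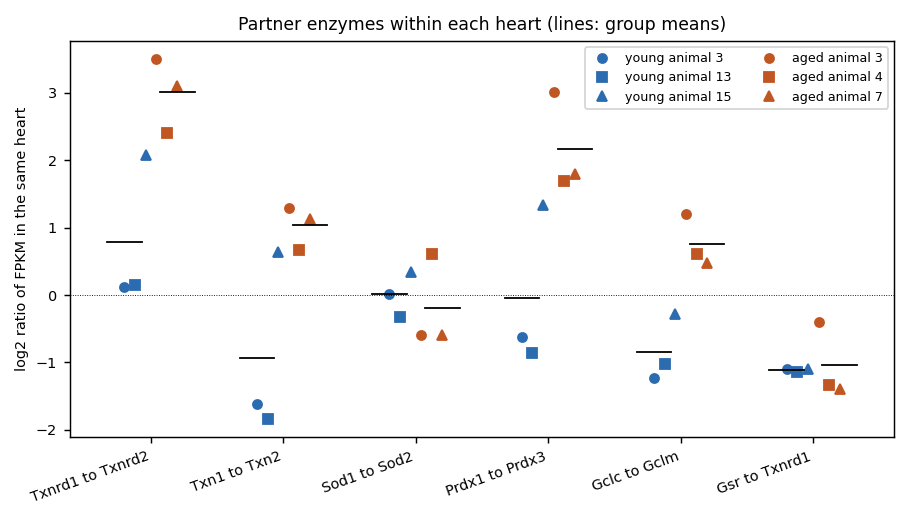
Log2 ratio of FPKM between partner enzymes in the same heart for 6 pairs, with a point for each of the 3 young and 3 aged hearts and black lines at the group means. For Txnrd1 to Txnrd2, Txn1 to Txn2, Prdx1 to Prdx3 and Gclc to Gclm all aged hearts lie above all young hearts, with young heart 15 the nearest to them, while the groups overlap for Sod1 to Sod2 and Gsr to Txnrd1.

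Peroxiredoxins reduce hydrogen peroxide and organic peroxides through a reactive cysteine. All 6 were tested, and 2 rose and 1 fell (50% past the limits, against 32.2% of all genes tested). Prdx5 (ENSRNOG00000021125, chr1:222164462-222167447), whose product is found in mitochondria, peroxisomes and the cytosol, stood at 184, 204 and 205 FPKM in young hearts and at 544, 611 and 464.5 FPKM in aged hearts. The young hearts were within a narrow range, young heart 15 included, and every aged heart was higher. Its log2 fold change of 1.45 ± 0.22 was the largest rise among the 52 genes, and its adjusted p by edgeR with Benjamini-Hochberg adjustment was 0.0916. Prdx1, a cytosolic enzyme, stood at 166, 157 and 216 FPKM in young hearts and 311, 244 and 274 FPKM in aged hearts, with a log2 fold change of 0.62 ± 0.22. Prdx3, the mitochondrial enzyme that takes electrons from TXN2, stood at 256, 285 and 85.8 FPKM in young hearts and 38.6, 75.5 and 79.1 FPKM in aged hearts. It fell by 1.70 ± 0.52, and young heart 15 lay just above the aged hearts.

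Prdx2, which is abundant in red blood cells, was at 354, 363.5 and 197.5 FPKM in young hearts and 165, 211 and 191 FPKM in aged hearts. Young hearts 3 and 13 were above all others, but its difference of −0.69 ± 0.29 did not pass the p limit. Red blood cell markers summed to 729 to 5788 CPM in young hearts and 246 to 3098 CPM in aged hearts, 2 of the 7 tested fell, and their part in the Prdx2 level was not tested. Prdx6 (−0.43 ± 0.35) and Prdx4 (0.24 ± 0.28), the peroxiredoxin of the endoplasmic reticulum, did not pass the limits either.

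The summed peroxiredoxin level was 1041 ± 183.5 FPKM in young hearts and 1193 ± 83.0 FPKM in aged hearts (SD, n = 3), with overlap, and the log2 difference of 0.20 became 0.68 in the deposited FPKM. Prdx5 made up 16.5%, 17.3% and 24.7% of the sum in young hearts and 47.1%, 47.4% and 40.9% in aged hearts. Prdx3 made up 22.9%, 24.3% and 10.3% in young hearts and 3.34%, 5.86% and 6.96% in aged hearts. By mean level, Prdx5 ranked 8 of the 52 genes in young hearts and 1 in aged hearts, and Prdx3 went from rank 7 to rank 16. The ratio of Prdx1 to Prdx3 in a heart was 0.650, 0.551 and 2.52 in young hearts and 8.05, 3.23 and 3.46 in aged hearts. The groups did not overlap, with a difference in log2 ratio of 2.21 (exact permutation p = 0.1, adjusted 0.15).

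Glutathione peroxidases spend glutathione to reduce peroxides. None of the 4 tested passed the limits in edgeR's test, against 32.2% of all genes. Gpx1, the abundant cytosolic and mitochondrial form and the gene with the highest mean level of the 52 in young hearts, stood at 627, 683 and 410.1 FPKM in young hearts and at 533, 479 and 447 FPKM in aged hearts. The aged values lay within the range of the young values, and the difference of −0.24 ± 0.28 changed sign to 0.27 with library totals alone. Gpx3, the secreted form, had 223, 197 and 293 FPKM in young hearts and 172.5, 219 and 124 FPKM in aged hearts (−0.47 ± 0.30). Gpx7, which acts in the endoplasmic reticulum, had 27.2, 25.4 and 31.4 FPKM in young hearts and 17.6, 23.2 and 10.6 FPKM in aged hearts. Every aged heart was lower for Gpx7, but its difference of −0.71 ± 0.31 missed the p limit. Gpx8, its relative, differed by 0.14 ± 0.40 with overlap. The summed level of the 4 genes was 859 ± 80.8 FPKM in young hearts and 697.5 ± 82.9 FPKM in aged hearts, without overlap (exact permutation p = 0.1, adjusted 0.3). This order depended on the scaling, since the log2 difference of −0.30 became 0.17 in the deposited FPKM.

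Gpx4, the peroxidase of membrane lipid peroxides, could not be followed, with 3 reads in young heart 15, 2 in aged heart 3 and 0 in the other 4 hearts. It overlaps Sbno2 on the opposite strand, which rose. Fth1, the ferritin heavy chain that nearly every cell makes in quantity, was also at 0 reads in all 6 hearts, so a count near 0 in this table is not read as lack of expression, and its cause was not tested.

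Of the 24 glutathione S-transferase genes, 15 were tested, of which 2 rose and 5 fell (46.7% past the limits, against 32.2% of all genes tested). Gstp1 (ENSRNOG00000018237, chr1:219291679-219294147), the pi class enzyme, stood at 71.4, 72.8 and 68.5 FPKM in young hearts and at 172, 106 and 119 FPKM in aged hearts. The young hearts lay close together and all aged hearts were higher, with a log2 fold change of 0.90 ± 0.22. Gsta1 rose by 1.01 ± 0.41 from low levels, 4.91, 2.58 and 6.03 FPKM in young hearts against 9.63, 5.77 and 11.9 FPKM in aged hearts. Aged heart 4 lay below young heart 15, and the gene overlaps Gsta3 on the opposite strand.

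The 5 genes that fell did so by more than those that rose. Gsta4 (ENSRNOG00000030449, chr8:85497557-85518879), whose enzyme conjugates the lipid peroxidation product 4-hydroxynonenal, stood at 30.2, 24.1 and 4.09 FPKM in young hearts and at 1.01, 3.72 and 2.50 FPKM in aged hearts, and fell by 3.01 ± 0.83. Young heart 15 was close to aged heart 4. Gstk1, the kappa class enzyme of mitochondria and peroxisomes, stood at 53.8, 47.4 and 9.55 FPKM in young hearts and 5.94, 9.44 and 9.58 FPKM in aged hearts, and fell by 2.15 ± 0.63. Gstm7, of the mu class, stood at 147, 139 and 30.0 FPKM in young hearts and 4.02, 30.7 and 33.9 FPKM in aged hearts, and fell by 2.20 ± 0.91. For Gstk1 and Gstm7, young heart 15 lay within the range of the aged hearts. Gsta6 fell by 2.35 ± 0.54, from 6.42 ± 3.17 to 1.25 ± 0.565 FPKM, and Gstt2, of the theta class, fell by 2.03 ± 0.57, from 3.92 ± 2.15 to 0.957 ± 0.331 FPKM (SD, n = 3). The alpha and mu classes each hold closely related copies, and Gstm7 overlaps Gstm3l and Gstm6 on the same strand, so how their reads were divided is uncertain.

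Of the 8 other transferases tested, Gstz1 had 15.1, 13.2 and 5.61 FPKM in young hearts and 2.29, 5.53 and 6.63 FPKM in aged hearts, a difference of −1.23 ± 0.52 that did not pass the p limit, and the others lay between −0.82 and 0.08. Gstm1 (−0.05 ± 0.23), Gstcd (0.04 ± 0.20) and Gsto1 (0.08 ± 0.17) had overlapping groups, and Gsto1 overlaps Gsto2 on the same strand. The summed class was 332 ± 117.5 FPKM in young hearts and 253 ± 20.2 FPKM in aged hearts (SD, n = 3), with overlap, and the log2 difference of −0.39 became 0.13 in the deposited FPKM. Gstp1 made up 17.3%, 18.8% and 34.8% of the sum in young hearts and 62.5%, 45.1% and 48% in aged hearts. Gstm7 made up 35.7%, 35.8% and 15.2% in young hearts and 1.46%, 13% and 13.7% in aged hearts. The leading transferase transcript was thus Gstm7 in young hearts 3 and 13 and Gstp1 in young heart 15 and every aged heart.

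**Figure D3:**
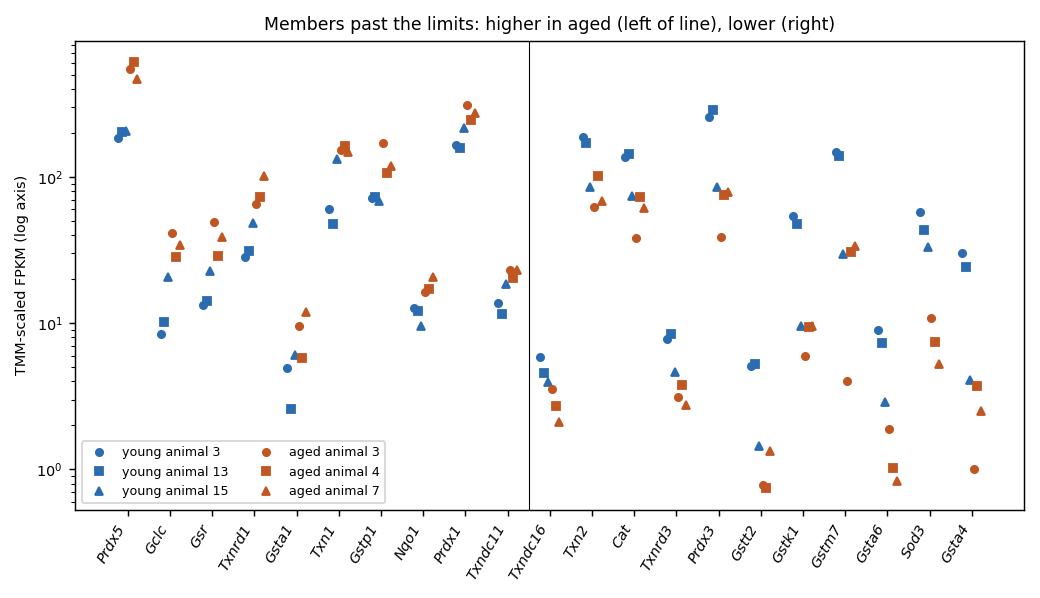
TMM-scaled FPKM (log axis) of the 21 genes past the limits in each of the 3 young (blue) and 3 aged (orange) hearts, with genes higher in aged hearts to the left of the line. Prdx5, Gstp1 and Nqo1 show young heart 15 (blue triangle) together with the other young hearts, while for Gstk1, Gstm7 and Txn2 it lies among the aged hearts.

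Superoxide dismutases and catalase gave 2 falls and no rise among 4 genes in edgeR's test (50% past the limits, against 32.2% of all genes). Sod3 (ENSRNOG00000003869, chr14:60958592-60964324), the dismutase secreted to the outside of cells, stood at 57.7, 43.1 and 33.5 FPKM in young hearts and at 10.8, 7.39 and 5.30 FPKM in aged hearts. Every aged heart was below every young heart, with a wide gap between the groups. It fell by 2.51 ± 0.34 on the log2 scale, and its adjusted p by edgeR's test with Benjamini-Hochberg adjustment was 0.0916. Smooth muscle markers, of cells that secrete this enzyme in vessel walls, summed to 466 to 1032 CPM in young hearts and 320 to 526 CPM in aged hearts, and 2 of 6 fell. Their part in the fall of Sod3 was not tested. Cat, the catalase of peroxisomes, stood at 137, 143 and 74.7 FPKM in young hearts and at 38.1, 73.3 and 61.4 FPKM in aged hearts, and fell by 1.04 ± 0.37. Young heart 15 and aged heart 4 were nearly level.

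The intracellular dismutases did not pass the limits. Sod1, the cytosolic copper-zinc enzyme, had 247, 247 and 139 FPKM in young hearts and 119.9, 217 and 137 FPKM in aged hearts (−0.42 ± 0.33). Sod2, the mitochondrial manganese enzyme, had 243, 309 and 110.0 FPKM in young hearts and 181, 142 and 205 FPKM in aged hearts (−0.33 ± 0.41). Young hearts 3 and 13 were the highest for both genes, young heart 15 was the lowest for Sod2, and both differences turned positive with library totals alone (0.081 and 0.22). The ratio of Sod1 to Sod2 in a heart ran from 0.80 to 1.27 in young hearts and from 0.664 to 1.53 in aged hearts, with overlap (exact permutation p = 0.8, adjusted 0.96). The summed level of the 4 genes was 594.5 ± 207 FPKM in young hearts and 399 ± 45.9 FPKM in aged hearts, also with overlap. The log2 difference of −0.57 shrank to −0.055 in the deposited FPKM and was −0.84 without young heart 15.

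**Figure D4:**
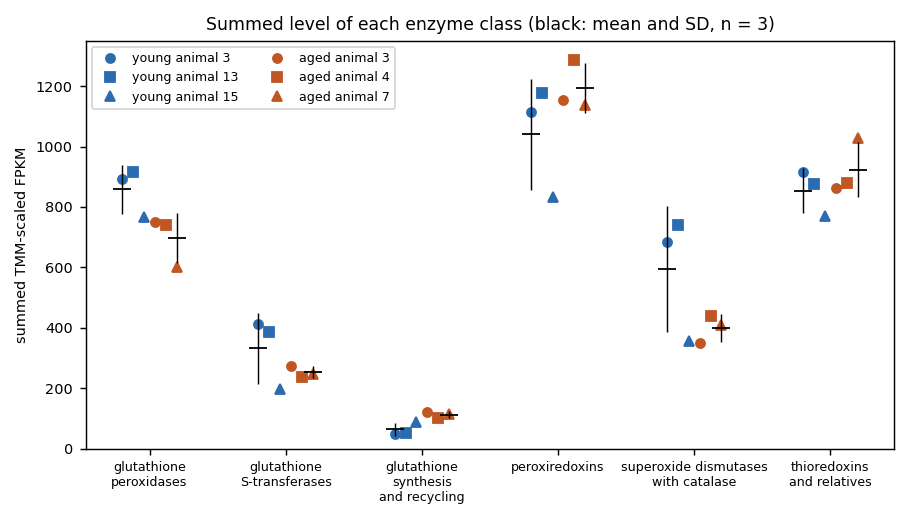
Summed TMM-scaled FPKM of 6 enzyme classes in each of the 3 young and 3 aged hearts, with black marks for the mean and SD. The glutathione synthesis and recycling genes are higher in all aged hearts (112.6 against 63.3 FPKM on average) and the glutathione peroxidases lower (697.5 against 859 FPKM), and the other 4 classes overlap.

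The regulators themselves did not pass the limits with all 6 hearts and TMM scaling. Nfe2l2 stood at 38.3, 39.4 and 42.1 FPKM in young hearts and at 62.1, 43.2 and 60.1 FPKM in aged hearts. All aged hearts were above the young hearts, aged heart 4 by little, but the difference of 0.47 ± 0.20 missed both limits. It passed them with library totals alone (0.91) and without aged heart 4 (0.62). Keap1 had 24.6, 23.8 and 20.8 FPKM in young hearts and 17.0, 21.3 and 21.1 FPKM in aged hearts (−0.22 ± 0.17), and its sign turned to 0.24 with library totals alone. Nqo1, a quinone reductase and a common readout of NRF2, stood at 12.7, 12.1 and 9.52 FPKM in young hearts and 16.3, 17.1 and 20.6 FPKM in aged hearts. It rose by 0.65 ± 0.20, and young heart 15 was the lowest of the 6 hearts.

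By the place of the protein, the members listed as mitochondrial were Prdx3, Prdx5, Txn2, Txnrd2, Sod2, Gstk1 and Gpx4. Of the 6 tested, Prdx5 rose and Prdx3, Txn2 and Gstk1 fell, 66.7% past the limits against 32.2% of all genes tested. The median log2 fold change of the 6 was −0.99, against −0.21 for all 52 genes. Gpx1, both cytosolic and mitochondrial, was left out of this list, and its difference of −0.24 ± 0.28 did not pass the limits. Prdx5 and Gstk1, whose products are also found outside mitochondria, were kept, so the share past the limits depends on this choice. Cardiomyocyte marker sums were lower in every aged heart than in any young heart. With the marker level in the fit, the log2 values of Prdx3, Txn2 and Gstk1 were −0.41, −0.22 and −0.84, none past the limits in edgeR's test. That of Prdx5 was 1.42, past the limits, and 5.15% of all genes tested passed. Because marker level and donor age go together in these hearts, this fit cannot tell them apart, and their parts were not tested. Of the 10 members of the secretory pathway or outside cells, Txndc11 rose and Sod3 and Txndc16 fell, with a median of −0.08. The share past the limits was 30%, close to the 32.2% of all genes tested. Of the 5 selenoprotein members tested, Txnrd1 rose, Txnrd3 fell and Gpx1, Gpx3 and Txnrd2 did not pass, with a median of −0.47. Here 40% passed the limits, against the same 32.2%.

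The 15 genes below the filter had at most 8 reads in a heart. Gpx2, Gpx5, Gpx6, Gsta2, Gstm3, Gstm6l and Gstt4 had none in any heart. Gpx4, Gsta3, Gsta5, Gstm3l, Gstm5, Gstm6, Txndc2 and Txndc8 had a few.

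To see which of these genes carry the NRF2 element near their start, promoters were searched for the core of the antioxidant response element, TGACNNNGC, on both strands. RefSeq promoter sequences on GRCr8 (250 bases before to 50 after the gene start, a build other than the Rnor_6.0 of the counts) were matched by symbol for 58 of the 67 genes, and a gene with several annotated starts counted once if any of them held a match. The core occurred in 12.1% of all 33469 promoters, counted per promoter and not per gene, which can lower that share beside those that follow. Counted per gene, it occurred in 20 of the 58 (34.5%) and in 6 of the 9 that rose and had a sequence (66.7%). It was in 1 of 9 that fell (11.1%) and in 9 of 27 that did not pass (33.3%). The AP-1 site, TGANTCA, can overlap this core. It was in 7.33% of all promoters, in 2 of the 9 that rose and in 0 of the 9 that fell. A match to so short a pattern is a description of these letters, not a bound site, and its absence from this window says nothing of elements farther away.

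The windows below are 29 bases long and are shown because they carry the match in 5 of the 6 genes that rose, in Gstm7, the gene that fell, and in Gclm, the modifier subunit that did not pass. Each is written 5′ to 3′ on the strand of the gene with the core in capitals, and a core that reads GCNNNGTCA is a match on the opposite strand.
Gstp1: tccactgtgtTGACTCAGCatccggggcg
Prdx1: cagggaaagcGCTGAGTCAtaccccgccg
Txnrd1: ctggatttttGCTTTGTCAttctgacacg
Txndc11: tgtgaaaggcTGACGCGGCcgcgagtgct
Prdx5: cctcctgtggGCAGAGTCAtctgcgggtg
Gstm7: gaggctagatTGACACAGCctgtccgttc
Gclm: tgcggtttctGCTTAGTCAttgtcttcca

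These windows lie on GRCr8 at chr1:210769748-210769776 for Gstp1, chr5:135383761-135383789 for Prdx1, chr7:22755964-22755992 for Txnrd1, chr10:5022315-5022343 for Txndc11, chr1:213532010-213532038 for Prdx5, chr2:198260315-198260343 for Gstm7 and chr2:213031953-213031981 for Gclm. The core began 61 bases before the gene start in Gstp1, 135 in Prdx1, 139 in Txndc11 and 1 in Prdx5. It began 14 bases before the start in Gstm7 and 172 in Gclm. For Txnrd1 it began 78 bases before an annotated start that lies inside the gene. The promoter of the Txnrd1 start farther upstream (chr7:22764802-22765101) held no match. In Gsta1, the sixth gene that rose, the core began at base 31 inside the gene. In Gstp1 and Prdx1 the core overlaps an AP-1 site. Gclc, Nqo1 and Txn1 rose and held no match in this window, and for Gsr no sequence was at hand.

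The genes that supply and share this system were read from 4 lists. Of 88 companion genes tested, 19 rose and 23 fell, or 47.7%, against 32.2% of all genes. These lists were chosen with earlier results of these data known. Their shares past the limits are therefore descriptions, not evidence of an excess over all genes. Of 14 genes of NADPH supply, 4 rose and 4 fell (57.1% past the limits). Tkt (1.37 ± 0.44) and Taldo1 (1.29 ± 0.34), enzymes of the pentose phosphate pathway, rose, as did the NAD kinase Nadk. Idh2 and Nnt, which make NADPH in mitochondria, fell by 2.88 ± 0.87 and 2.41 ± 0.74. Nadk2 and Me1 fell as well, each with overlapping groups. Idh2 stood at 1665, 1901 and 267.8 FPKM in young hearts and 67.9, 229.4 and 222.4 FPKM in aged hearts. Young heart 15 was nearer the aged hearts than the other young hearts for Idh2. With the cardiomyocyte marker level in the fit, the log2 values of Idh2 and Nnt were −0.74 and −0.46. Neither passed the limits in edgeR, in a fit where 5.15% of all genes tested did and which cannot tell marker level from donor age. Neutrophil and macrophage markers were higher in the same hearts as the genes that rose, and their part was not tested.

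Of 25 glutathione companions, 6 rose and 8 fell (56% past the limits, against 32.2% of all genes tested). Slc7a11, the cystine importer that feeds glutathione synthesis, had 1, 3 and 31 reads in young hearts and 124, 79 and 360 reads in aged hearts, and rose by 3.67 ± 1.10, a size that rests on few young reads. It was 5.79 without young heart 15 and 2.72 without aged heart 7, where it no longer passed the limits. Its partner chain Slc3a2 rose by 1.39 ± 0.37, and the glutaredoxin Glrx and the microsomal transferases Mgst1 and Mgst2 rose by 1.98 ± 0.64, 1.42 ± 0.33 and 2.04 ± 0.59. Chac1, which degrades glutathione, rose by 2.34 ± 0.92, from 6, 2 and 39 reads in young hearts 3, 13 and 15 to 44, 134 and 120 reads in aged hearts. Its groups overlapped, with young heart 15 (1.03 FPKM) above aged heart 3 (0.921 FPKM). Mgst3 (−2.13 ± 0.87), Ltc4s (−2.38 ± 0.78) and Cbs (−2.17 ± 0.83), which feeds cysteine synthesis, fell, as did Glrx5, the glutaredoxin of mitochondria. For Ltc4s and Cbs the groups overlapped, with young heart 15 (1.14 and 0.249 FPKM) below aged heart 4 (1.35 and 0.4855 FPKM).

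Of 22 NRF2 partners and targets, 8 rose and 5 fell (59.1% past the limits, against 32.2% of all genes tested). Hmox1, the heme-degrading enzyme, stood at 10.8, 12.4 and 164.6 FPKM in young hearts and 856, 341 and 749 FPKM in aged hearts, and rose by 3.37 ± 1.20. Its call was lost without young heart 3, young heart 13, aged heart 3 or aged heart 7, and the log2 value ran from 2.87 without young heart 3 to 5.85 without young heart 15. Macrophages also express Hmox1, and their markers were higher in the same hearts, as given above, and their part in this rise was not tested. The aldo-keto reductase Akr1b8 (3.04 ± 0.63) rose, as did Maff (2.14 ± 0.19) and Mafg, small MAF proteins that pair with NRF2, and Bach1, which competes with it. Ftl1, the ferritin light chain, rose by 2.04 ± 0.69, from 4, 3 and 26 reads in young hearts 3, 13 and 15 to 87, 47 and 49 reads in aged hearts. As with Fth1, such low counts for a ferritin chain may not reflect its level, and their cause was not tested. Nqo2 (−2.15 ± 0.65) and Aox1 (−1.98 ± 0.52) fell. For Nqo2, young heart 15 (8.76 FPKM) lay within the range of the aged hearts (7.51 to 9.575 FPKM). Of 27 genes of other thiol and superoxide systems, only Sesn2 rose and 6 fell in edgeR's test, among them Sesn1 (−2.77 ± 0.66) and the selenium carrier Selenop. That is 25.9% of this list, below the 32.2% of all genes tested.

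The calls rested on single hearts to different degrees. Gclc, Gsr, Gstp1, Prdx5 and Txnrd1 stayed past the limits in the higher direction, and Gsta4, Gsta6, Gstk1, Gstt2, Prdx3, Sod3 and Txnrd3 in the lower direction, with any of the 6 hearts left out, 12 of 21 in all. Gsta1, Nqo1, Prdx1, Txn1, Txndc11, Gstm7, Cat, Txndc16 and Txn2 lost the call in at least 1 of these fits and kept their sign. Among the companion genes of largest change, Akr1b8, Maff, Mgst2, Idh2, Nnt, Sesn1 and Aox1 kept the call in all 6 fits, and Hmox1, Slc7a11, Chac1, Ftl1, Glrx, Cbs, Ltc4s, Mgst3 and Nqo2 lost it in 1 to 5 of them. Young heart 15 lay between the other young hearts and all aged hearts for 15 of the 21 genes. No matching share of all genes past the limits is given for this count or for the 12 of 21. Neither is read as a trait of these genes. Without young heart 15, 13 genes rose and 14 fell, 51.9% of the 52 against 51.1% of all genes tested. The groups then did not overlap for 43 of 52 (20 with all hearts), where 2 young hearts face 3 aged hearts. The matching share of all genes is not given here, so that count is not read as a trait of these genes. Without aged heart 3, the heart with near-absent cardiomyocyte markers, 6 rose and 9 fell, 28.8% against 22.2% of all genes tested, and 14 of the 21 genes kept their call. Without aged heart 7 the counts were 5 and 7, 23.1% of the 52 against 22.5% of all genes tested. Without young heart 3 or young heart 13 the counts were 6 and 7, 25% of the 52 against 17.3% and 17.7% of all genes tested. With the cardiomyocyte marker level of each heart added to the edgeR fit, 5 of the 21 genes passed the limits (Prdx5, Txnrd1, Nqo1, Sod3 and Gsta6), and Gstm7 changed sign. In that fit 5.15% of all genes tested passed, and it cannot tell marker level from donor age in these hearts. With library totals in place of TMM, the median over all genes tested moved to 0.46, 12 genes rose and 7 fell among the 52 (3147 rose and 1441 fell of all genes, against 1815 and 2621), and Gstm7, Cat, Txndc16 and Txn2 no longer passed the limits.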

How the data were processed

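The authors deposited, for each gene and heart, the read count, which carries no normalization, and an FPKM value. The deposited FPKM is the count divided by the gene length in the table and by the library total. The submitters' processing notes name HISAT2 2.0.5, StringTie 1.3.3b, featureCounts 1.5.0-p3, DESeq2 1.16.1 and GATK 3.7, without roles, and the build Rnor_6.0. The use of strand is not given in the sources used here, so reads of overlapping genes and of near-identical copies are uncertain.

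The counts were tested with edgeR 4.0.16 in R 4.3.3 (filterByExpr by group, TMM scaling, glmQLFit and glmQLFTest without covariates), over the 13784 genes that passed the filter. The Benjamini-Hochberg adjustment runs over all of these genes. FPKM values were rescaled by the TMM factors (0.733 to 1.24). Standard errors of fold changes come from the F statistic, as the size of the log2 value over the root of F. Partner ratios and class sums were compared by two-sided exact permutation tests. Intervals were not computed, and the floor of 3 reads covers counting error only. Alternatives were DESeq2 1.42.0 size factors and its Wald test, limma 3.58.1 (voom with quality weights), library totals, filters of none and of 10 reads in 3 hearts, a fold limit of 2, adjusted p limits, a cardiomyocyte marker covariate, the deposited FPKM as given, and leaving out each heart. Promoters were searched in Python 3.11.15.

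The genes named singly in the rule were named wherever measured, the others where they passed the limits (at most 8 per direction in full, with at least 1 CPM) or led their class, and companion genes by the 8 largest changes in each direction. The other unpassed members, and further companions, were named for the account of their class after their values were seen. The members and all lists were chosen with earlier results of these data known. Some genes that touch these results are not reported here by name.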

Additional observations from a re-analysis of the deposited data

How the results depend on the processing

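No paired analysis was possible because the groups share only 1 animal number, which marks different hearts. DESeq2's size factors, no filter on low counts, a filter of 10 reads in 3 hearts and DESeq2's Wald test kept all 21 genes past the limits. With library totals alone, 7 genes fell in place of 11 and 13 companion genes in place of 23, and the log2 differences of Gclm (0.33), Gpx1 (0.27), Keap1 (0.24), Sod1 (0.081) and Sod2 (0.22) were positive. With limma-voom, 17 genes fell and 31 companion genes rose, in a fit where 55.8% of the 52 and 54.4% of all genes tested passed the limits. Gclm (0.083) and Txnip (−0.22) changed sign there. With the adjusted p in the limits, 0 genes and 0 companion genes passed in either direction, as did 0% of all genes tested. With a 2-fold limit 5 genes rose, and 26.9% of the 52 passed in either direction against 22.5% of all genes tested. With the cardiomyocyte covariate, 3 genes rose and 2 fell, 9.62% of the 52 against 5.15% of all genes tested. Of the companion genes, 8 rose and 2 fell in that fit. Gstm7 (0.43), Keap1 (0.071), Sod1 (0.27), Sod2 (0.084) and Mgst3 (0.29) changed sign. In the deposited FPKM, the class sums of glutathione peroxidases (0.17) and glutathione S-transferases (0.13) were higher in aged hearts.

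With 1 heart left out, 5 (without aged heart 7) to 13 (without young heart 15) genes rose and 7 to 14 fell. Of all genes tested, 17.3% (without young heart 3) to 51.1% (without young heart 15) passed the limits in these fits. The groups did not overlap for 20 (without young heart 3) to 43 (without young heart 15) of the 52. With a heart left out, groups separate more easily, and no matching count over all genes is given here. These counts are therefore not read as a trait of these genes. Companion genes that rose numbered 11 (without young heart 13) to 31 (without young heart 15), and those that fell 12 to 24. The log2 fold change ran from −0.23 to 0.054 for Gclm and from −0.21 to 0.34 for Txnip, which was −0.18 without aged heart 7, and the difference in the log2 ratio of Gsr to Txnrd1 from −0.26 to 0.24. The causes were not tested. With 3 hearts against 3, no single value could give an exact permutation p below 0.1, and the 15 genes below the filter allow no statement at this depth.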
